A study of Mus musculus with 82 samples.

Results

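Six-family genes encode homeodomain transcription factors, and 5 of them were examined here, Six2, Six3, Six4, Six5 and Six6, for nearby chromatin binding of the T-box factors Eomes and Brachyury. A peak was assigned to these genes when its midpoint lay within 50 kb of a gene's span on the mouse build GRCm38. Of 132113 peaks in 4 lists, 60 met the rule, namely 15 of 30129 EoGFP peaks, 12 of 27588 BraGFP peaks, 20 of 36203 EoVP16 peaks and 13 of 38193 EoV5 peaks. Six2 and Six3 lie 36.5 kb apart on chromosome 17 and formed 1 locus, whereas Six6 and Six4 on chromosome 12 are 155 kb apart and Six5 is on chromosome 7, which gave 4 loci in all.

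The series examined how Eomes and Brachyury act when mouse embryonic stem cells leave pluripotency, and 6 of its 82 samples, all ChIP-seq libraries, stand behind the lists used here. All 6 came from A2lox.Cre mouse embryonic stem cells with both Eomes and Brachyury knocked out (dKO), grown as embryoid bodies and harvested on day 5 after activin A at 30 ng/ml and doxycycline from day 2. Each line carried 1 doxycycline-inducible construct. EoGFP (Eomes, 2 libraries) and BraGFP (Brachyury, 2 libraries) were precipitated with an anti-GFP antibody, and EoVP16 (Eomes with the VP16 activation domain, 1 library) and EoV5 (Eomes, 1 library) with an anti-V5 antibody. The level of each construct was not analysed here, and whether a line was 1 clone is not given in the sources used here. Six2 was itself among the genes put back into dKO cells in this series, but the RNA-seq of that line was not analysed here, so no expression level stands beside the peaks.

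The authors deposited 1 list per construct, with minimum pileups, in fragments stacked at a peak's summit, of 120 for EoGFP, 40 for BraGFP, 36 for EoVP16 and 60 for EoV5, as given by the lists' names. The minimum differs between lists and the depth of the libraries is unknown, so absence from a list means only that no peak passed its minimum. With 1 list per construct there is no replicate check, no test was made, and counts, widths and heights are descriptions. Intervals on heights and shares are exact 95% intervals that cover counting error only. Heights were deposited for EoVP16 and EoV5 alone, and width describes the peaks of the EoGFP and BraGFP lists.

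Six-family proteins are named after the fly eye gene sine oculis. They bind DNA through a homeodomain next to a conserved SIX-type domain, recruit Eya proteins as coactivators, and can repress together with Dach proteins or Groucho (Tle) corepressors. In mice Six2 keeps nephron progenitors in a self-renewing state, Six3 and Six6 act in forebrain and eye, Six4 acts in the muscle lineage, and Six5 lies next to Dmpk, the kinase gene whose human counterpart carries the repeat that expands in myotonic dystrophy. Eomes and Brachyury start mesoderm and endoderm formation in the primitive streak, and the preferred T-box half-site contains GGTGTGA.

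The 250 bases before 1 listed start of each gene are shown because 4 of these 5 promoters lay under a peak of at least 1 construct and the Six3 promoter under none. They are from the RefSeq promoter table of GRCm38.p6, 5′ to 3′ on the gene's own strand. Capitals mark runs of at least 11 bases that 2 of the promoters share on either strand, chosen after the sequences were seen.
Six2, chr17:85688255-85688504, minus strand: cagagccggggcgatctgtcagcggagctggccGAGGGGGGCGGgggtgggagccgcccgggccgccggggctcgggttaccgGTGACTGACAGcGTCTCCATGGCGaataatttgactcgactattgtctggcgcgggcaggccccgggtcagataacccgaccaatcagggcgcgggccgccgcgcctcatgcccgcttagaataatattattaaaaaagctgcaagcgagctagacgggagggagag
Six3, chr17:85620584-85620833, plus strand: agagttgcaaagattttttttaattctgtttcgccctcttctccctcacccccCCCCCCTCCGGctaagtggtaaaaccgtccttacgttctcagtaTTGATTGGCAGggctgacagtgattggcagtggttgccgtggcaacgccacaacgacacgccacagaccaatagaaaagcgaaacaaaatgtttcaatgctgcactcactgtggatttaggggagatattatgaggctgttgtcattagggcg
Six4, chr12:73113246-73113495, minus strand: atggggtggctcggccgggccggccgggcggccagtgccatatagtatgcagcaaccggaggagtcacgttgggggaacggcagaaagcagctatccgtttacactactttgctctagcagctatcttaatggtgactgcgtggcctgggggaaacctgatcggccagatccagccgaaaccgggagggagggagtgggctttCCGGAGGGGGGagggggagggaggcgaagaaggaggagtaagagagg
Six5, chr7:19094294-19094543, plus strand: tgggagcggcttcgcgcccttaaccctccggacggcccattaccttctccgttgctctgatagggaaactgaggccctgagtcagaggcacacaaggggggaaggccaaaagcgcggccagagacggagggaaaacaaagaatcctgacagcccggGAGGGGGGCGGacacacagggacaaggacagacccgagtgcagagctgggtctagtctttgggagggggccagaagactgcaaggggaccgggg
Six6, chr12:72939632-72939881, plus strand: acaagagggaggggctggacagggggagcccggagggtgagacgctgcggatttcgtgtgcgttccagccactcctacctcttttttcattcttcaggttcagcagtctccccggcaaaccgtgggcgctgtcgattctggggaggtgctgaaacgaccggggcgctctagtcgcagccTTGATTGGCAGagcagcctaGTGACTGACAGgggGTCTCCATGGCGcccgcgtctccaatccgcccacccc

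The Six2 and Six6 promoters shared 2 runs in the same order. The run gtgactgacag began 167 bases upstream of the Six2 start and 51 bases upstream of the Six6 start, and gtctccatggcg began 155 and 37 bases upstream of the same starts. Of 32851 promoters in the table, 12 held the first run and 11 the second. Six6 also shared ttgattggcag with Six3, a run found in 11 promoters. The other 2 marked runs were rich in G and C and more common, with gaggggggcgg of Six2 and Six5 in 87 promoters and ccggagggggg of Six4 and, on the opposite strand, Six3 in 22 promoters. A shared run describes the letters and is no evidence of a binding site.

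None of the 6 member windows, which include a second listed start of Six4, held GGTGTGA on either strand. Among all promoters of this length 3.33% held it. The longer AGGTGTGA, which contains it, was found in 1.12% of all promoters, and the shorter GGTGTG, which it contains, in 16.3%, and both were missing from the 6 windows too. With 6 windows, those of Six4 overlapping each other, absence at such shares does not set the members off from other promoters. Peak sequences were not read, as no genome was used here. The promoter of Six2 was 64.8% G and C with 26 CG dinucleotides, that of Six3 48.8% with 10, that of Six4 62% with 15, and those of Six5 and Six6 62.8% each, with 13 and 17. Over all promoters the median was 52.4% (interquartile range 45.2 to 61.2) with 6 CG dinucleotides. Six3 was the single member below the median share of G and C, and every member was above the median of CG dinucleotides.

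Most of these genes had peaks nearby, as did most genes. A peak midpoint lay within 50 kb of 4 of the 5 members in the EoGFP list and of 4 in the BraGFP list, Six6 being the exception in both, and of all 5 in the EoVP16 list and all 5 in the EoV5 list. Among 21887 coding genes the share with such a peak was 81.1% for EoGFP, 76.5% for BraGFP, 84.2% for EoVP16 and 83.0% for EoV5. Having a nearby peak therefore did not set the members off from other genes, and the counts and positions of the peaks are what varied among them.

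Six2 had 6 EoGFP peaks, 1 BraGFP peak, 7 EoVP16 peaks and 4 EoV5 peaks within 50 kb. Six3 had 6, 1, 6 and 5 peaks in the same order of lists. Their windows share ground, and 4 EoGFP, 4 EoVP16 and 2 EoV5 peaks were counted for both genes. Six4 had 3 EoGFP, 5 BraGFP, 3 EoVP16 and 3 EoV5 peaks, and Six5 had 4, 5, 6 and 2. Six6 had 0 EoGFP, 0 BraGFP, 2 EoVP16 peaks and 1 EoV5 peak. In the order of total peaks, Six2 and Six3 stood first with 18 each, followed by Six5 with 17, Six4 with 14 and Six6 with 3, so the first 4 were close and Six6 stood apart.

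**Figure D1:**
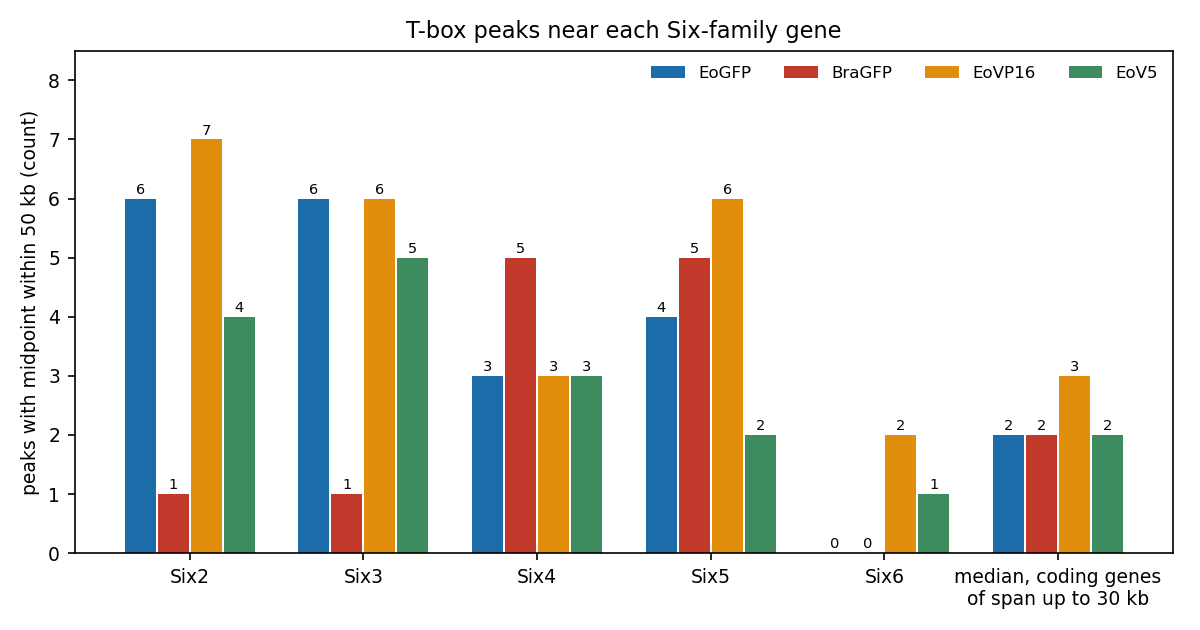
Number of peaks with midpoint within 50 kb of each Six-family gene, with 1 bar per construct list (EoGFP, BraGFP, EoVP16 and EoV5 from left to right) and, at the right, the median over 14381 coding genes with a span of up to 30 kb. Six2 and Six3 have 1 BraGFP peak each and 6 EoGFP peaks each, Six4 and Six5 have 5 BraGFP peaks each, and Six6 has none in either GFP list.

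The balance of Eomes and Brachyury peaks was not alike at the 4 loci. Coding genes with a span of up to 30 kb had a median of 2 EoGFP peaks (interquartile range 1 to 4) and 2 BraGFP peaks (0 to 3). At Six2 and at Six3 the 6 EoGFP peaks exceeded the count of 86.6% of these genes, whereas the single BraGFP peak exceeded that of 29.3%. At Six4 and at Six5 the order was the other way round, since 5 BraGFP peaks exceeded the count of 91.2% of these genes, and the 3 EoGFP peaks of Six4 and 4 of Six5 exceeded that of 53% and 66.5%. Only 4.19% of short genes had more BraGFP peaks than Six4 or Six5. Over all 4 lists, 9 of the 14 peaks near Six4 and 13 of the 17 near Six5 touched another coding gene. For EoVP16 the share of short genes with fewer peaks was 84.5% at Six2, 77.3% at Six3, 44.8% at Six4, 77.3% at Six5 and 33.3% at Six6. For EoV5 it was 69.4% at Six2, 81.2% at Six3, 54.5% at Six4, 38.3% at Six5 and 21.9% at Six6.

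Lying at the start of a gene is a narrower property, and there the members differed more. A peak touched the window from 250 bases before to 50 bases after a start for 2 members in the EoGFP list (Six2 and Six5), 3 in the BraGFP list (Six2, Six4 and Six5), 4 in the EoVP16 list (Six2, Six4, Six5 and Six6) and 3 in the EoV5 list (Six2, Six4 and Six5). Of 17492 coding genes with such a window, the share touched was 42.1% for EoGFP, 21.8% for BraGFP, 52.6% for EoVP16 and 32.2% for EoV5. Six3 was touched in none of the 4 lists. With 5 genes these counts are too small to set against the shares of all genes.

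**Figure D2:**
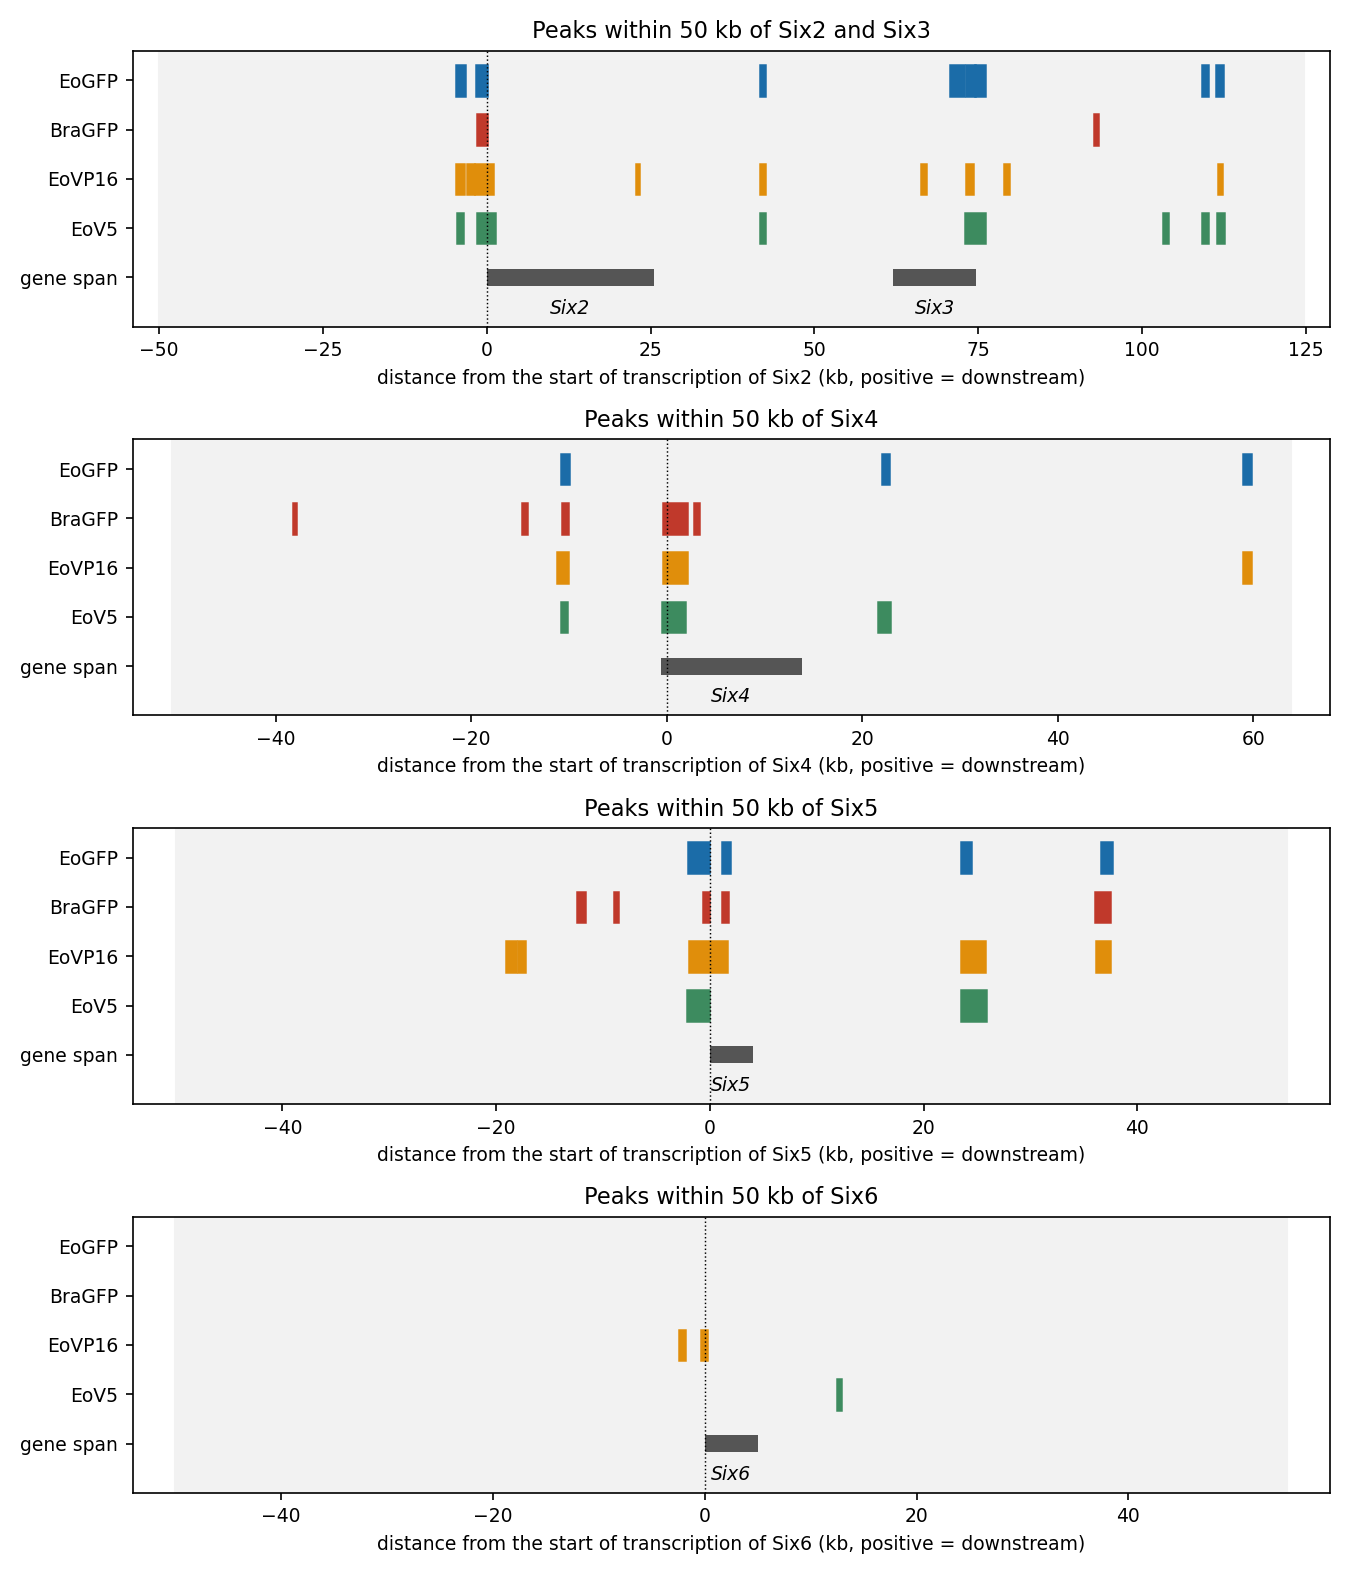
Peaks of the 4 lists (rows EoGFP, BraGFP, EoVP16 and EoV5 from top to bottom) along the 4 Six-family loci, as distance in kb from the start of Six2, Six4 (the more upstream of its 2 listed starts), Six5 or Six6, with positive values downstream. Coloured bars are peaks drawn to scale, so that neighbouring peaks can touch, dark bars are gene spans and shading is the 50 kb window. All 4 rows have a peak at the Six2 start and just upstream of Six5, BraGFP, EoVP16 and EoV5 have one at the Six4 start, and the GFP rows of Six6 are empty.

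At Six2 the start of the gene held the tallest peaks of the whole set in both lists with heights. Six2 runs on the minus strand of chromosome 17 (85662736 to 85688254), and the site in all 4 lists spanned 85687039 to 85690028. The EoVP16 peak there reached 121 fragments (100 to 145), taller than 93.9% of that list, and the EoV5 peak reached 228 fragments (199 to 260), taller than 86.3%. The EoVP16 summit lay 135 bp upstream of the start, inside the sequence shown above, and the EoV5 summit lay 793 bp upstream, 658 bp away. The EoGFP peak was 1723 bp wide, wider than 91.8% of its list, and covered the start. The BraGFP peak was 1396 bp wide, wider than 92.9% of its list, and ended just short of the start. Another gene shares this stretch, since the start listed nearest to the middle of each of these 4 peaks was that of CJ186046Rik.

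None of the 4 further sites around Six2 held a BraGFP peak. A site about 4 kb upstream was in the other lists, with 36 fragments (25.2 to 49.8) in EoVP16, the minimum of that list, and 78 fragments (61.7 to 97.3) in EoV5. Between the 2 genes, 16.6 kb beyond the end of Six2, another site of the same make-up had 69 fragments (53.7 to 87.3) in EoVP16 and 66 (51 to 84) in EoV5. The height was almost the same in both, but it was taller than 70.9% of the EoVP16 list and than 9.98% of the EoV5 list. EoVP16 alone had a peak of 52 fragments 2.5 kb upstream of Six2 and one of 37 fragments inside the gene, 23 kb downstream of its start.

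Six3 had as many peaks as Six2, but none at its promoter. The gene table gives its span as 85613608 to 85626191 on the plus strand, while its listed start is at 85620834, so that part of the span lies upstream of the start. Across the beginning of the span a broad site (85612217 to 85615228) held 2 EoGFP peaks, an EoVP16 peak of 41 fragments (29.4 to 55.6) and an EoV5 peak of 97 fragments (78.7 to 118). The summits were not at the same place, with that of EoVP16 6.02 kb and that of EoV5 7.68 kb upstream of the start. Next to it stood an EoGFP peak of 2184 bp (85615373 to 85617556), wider than 97.1% of its list, that no peak of another list overlapped. The listed start nearest to both was that of Six3os1, an antisense transcript gene beside Six3. Inside the gene downstream of its start the 4 lists held 1 peak, of EoVP16 with 38 fragments and its summit at 893 bp.

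Farther upstream of Six3 the 4 lists parted again. The site 44.5 kb upstream was in the 3 Eomes lists, with 50 fragments (37.1 to 65.9) in EoVP16 and 145 (122 to 171) in EoV5. At 42.2 kb upstream EoGFP and EoV5 had a peak, of 113 fragments (93.1 to 136) in EoV5, and EoVP16 had none. Single-list peaks lay 36.2 kb upstream (EoV5, 65 fragments), 25.5 kb upstream (BraGFP, 538 bp) and 11.9 kb upstream (EoVP16, 38 fragments). The BraGFP peak at 25.5 kb was the second and last of the Six2 and Six3 locus, and it lay apart from every Eomes peak.

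At the Six4 start BraGFP had a peak and EoGFP had none in its list. Six4 runs on the minus strand of chromosome 12 (73099609 to 73114031) with listed starts at 73113425 and 73113245, and the site over both starts (73111362 to 73113915) was in the BraGFP, EoVP16 and EoV5 lists. The BraGFP peak was 2454 bp wide, wider than 99.4% of its list and the widest of the 12 near these genes. EoVP16 reached 64 fragments (49.3 to 81.7) and EoV5 63 fragments (48.4 to 80.6), and the EoV5 height exceeded only 4.01% of its list. Both were wide for their height, wider than 96.9% of the EoVP16 list and 96% of the EoV5 list. Their summits lay 33 bp and 17 bp downstream of the start at 73113425, both inside the sequence shown above. Of all 71918 sites of the 4 lists, 1.02% had this make-up of BraGFP, EoVP16 and EoV5 without EoGFP. The peaks also touched the span of Mnat1, which encodes a subunit of the CDK-activating kinase.

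The other Six4 sites lay outside the promoter. The site of all 4 lists was 10.4 kb upstream of Six4 (73123472 to 73124614), with 105 fragments (85.9 to 127) in EoVP16 and 118 (97.7 to 141) in EoV5, but the middle of each peak there was within 0.352 kb of a start of Mnat1, so it is nearer to that gene. BraGFP alone had peaks 2.85 kb downstream of the Six4 start, inside the gene, and 14.5 and 38.1 kb upstream, inside Mnat1. Beyond the 3′ end EoGFP and EoV5 shared a site 22 kb from the start, with 143 fragments (121 to 168) in EoV5. EoGFP and EoVP16 shared a site 45.5 kb from the gene's end, with 39 fragments (27.7 to 53.3) in EoVP16.

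At Six5 peaks lay on both sides of the start, in a crowded stretch of chromosome 7. Six5 spans 19094544 to 19098549 on the plus strand, and a site in all 4 lists (19092440 to 19094492) ended just before its start. EoVP16 reached 65 fragments (50.2 to 82.8) and EoV5 81 fragments (64.3 to 101), with summits 324 and 357 bp upstream of the start. The EoGFP peak was 2038 bp wide, wider than 96% of its list, and reached back into Dmpk, as the EoVP16 and EoV5 peaks did. The BraGFP peak, of 522 bp, lay between the 2 genes.

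Inside Six5 a second site (19094640 to 19096423) was in the EoGFP, BraGFP and EoVP16 lists and not in the EoV5 list, with 59 fragments (44.9 to 76.1) in EoVP16. The same make-up was seen 36.8 kb downstream inside Fbxo46, again with 59 fragments in EoVP16, and it is that of 1.48% of all sites. Six5 was the sole member with sites of this kind, 2 of its 8. A site in the 3 Eomes lists at the starts of Bhmg1 and Fbxo46, about 24 kb downstream, had 90 fragments (72.4 to 111) in EoVP16 and 106 (86.8 to 128) in EoV5. Single-list peaks lay in Dmwd (EoVP16, 66 and 46 fragments, and BraGFP, 796 bp) and in Dmpk (BraGFP, 327 bp). In all, 13 of the 17 peaks near Six5 touched another coding gene.

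Six6 had 3 peaks, each in 1 list and without overlap in another. The gene spans 72939882 to 72944899 on the plus strand of chromosome 12. An EoVP16 peak of 37 fragments (26.1 to 51) covered its start, with the summit 101 bp upstream and inside the sequence shown above, and a second of 36 fragments (25.2 to 49.8) lay 2.06 kb upstream. Both were at or next to the minimum of 36 in that list. An EoV5 peak of 85 fragments (67.9 to 105) lay 12.7 kb downstream of the start. The nearest EoGFP peak was 95.6 kb away and the nearest BraGFP peak 96.6 kb, so the absence from the GFP lists did not hinge on the 50 kb limit. Of coding genes with a span of up to 30 kb, the EoGFP list had a peak in the window for 76% and the BraGFP list for 70.7%.

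Elsewhere the limit mattered in a few cases. BraGFP had a peak midpoint 50.5 kb from Six5 and 53.2 kb from Six4, just outside, and EoVP16 had one 50.8 kb from Six5 and one 53.9 kb from Six4. The EoVP16 peak 53.8 kb from Six2 lay outside the window of that gene but was counted for Six3, 4.71 kb away. Just inside were an EoGFP peak 49.8 kb, an EoV5 peak 49 kb and an EoVP16 peak 48.1 kb from Six2, all of which lay nearer to Six3. In the EoVP16 and EoGFP lists a peak 45.5 kb from Six4 was the last one inside.

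Overlapping peaks of the 4 lists were merged into 31 sites, 13 at Six2 and Six3, 7 at Six4, 8 at Six5 and 3 at Six6. All 4 lists shared 3 of them, against 8.30% of all sites, and these were the Six2 start, the site upstream of Six4 and the site upstream of Six5. The 3 Eomes lists without BraGFP held 5 sites, against 14.5% of all sites, of which 4 were at Six2 and Six3. A single list held 17 of the 31 sites, against 53.1% of all sites. These were 8 sites of EoVP16, 6 of BraGFP, 2 of EoV5 and 1 of EoGFP. EoVP16 alone thus held 25.8% of the sites near these genes and 13.6% of all sites, and BraGFP alone 19.4% and 23%. The 8 peaks of EoVP16 alone had 36, 37, 37, 38, 38, 46, 52 and 66 fragments, and the minimum of that list is 36. With 31 sites at 4 loci the shares are coarse, and sites of 1 locus are not independent.

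**Figure D3:**
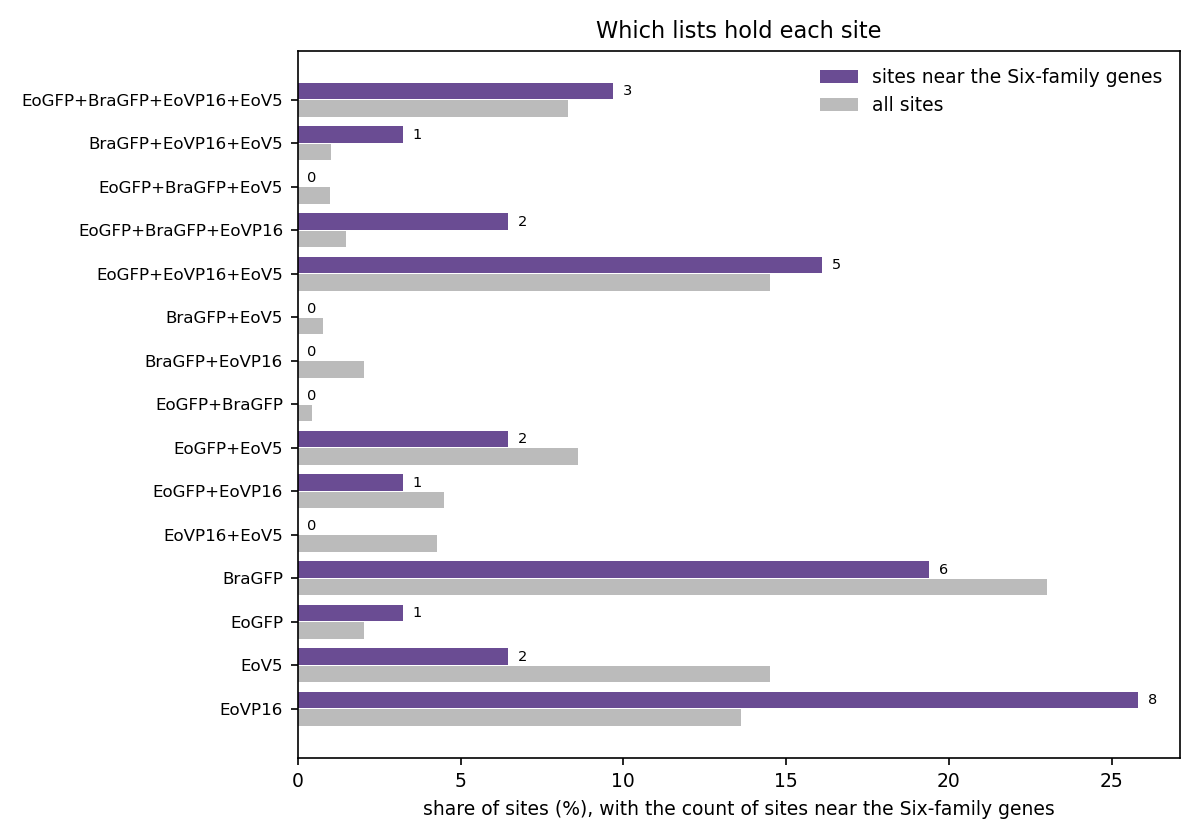
Share of the 31 sites near the Six-family genes (dark bars, with their count) and of all 71918 sites (light bars) that were held by each combination of lists. The longest dark bar is EoVP16 alone with 8 sites, followed by BraGFP alone with 6 and by EoGFP with EoVP16 and EoV5 with 5.

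Read peak by peak, 5 of 15 EoGFP peaks overlapped a BraGFP peak by at least 1 bp, which is 33.3% (11.8 to 61.6), against 27.1% over the whole list. In the other direction 5 of 12 BraGFP peaks overlapped an EoGFP peak, which is 41.7% (15.2 to 72.3), against 29.3%. The overlap was spread unevenly, with 1 of 8 EoGFP peaks at Six2 and Six3, 1 of 3 at Six4 and 3 of 4 at Six5. Between the GFP and V5 forms of Eomes, 11 of 15 EoGFP peaks overlapped an EoV5 peak (73.3%, 44.9 to 92.2), against 79.6% of the list, and this was 7 of 8 at Six2 and Six3 and 2 of 4 at Six5. When midpoints had to lie within 500 bp of each other, 46.7% of the EoGFP peaks near these genes had an EoV5 partner, and the share of the whole list under that setting was not computed. EoVP16 peaks overlapped EoV5 peaks in 9 of 20 cases (45%, 23.1 to 68.5), against 56.9%, and EoV5 peaks overlapped EoVP16 peaks in 9 of 13 cases (69.2%, 38.6 to 90.9), against 53.1%. Every one of these intervals held the share of the whole list.

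The peaks near these genes were of ordinary height and, in 3 of the 4 lists, somewhat wide. Median pileup was 51 fragments (36 to 121) over the 20 EoVP16 peaks near the Six-family genes, against 54 over the list, and 97 (63 to 228) over the 13 EoV5 peaks, against 99. EoGFP peaks near the genes had a median width of 1015 bp (728 to 2184) and EoGFP peaks in all 871 bp. BraGFP peaks near the genes had a median of 543 bp (327 to 2454), against 587 bp in all. For EoVP16 the medians were 1020 bp (419 to 2734) near the genes and 793 bp in all, and for EoV5 1046 bp (415 to 2989) and 820 bp.

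**Figure D4:**
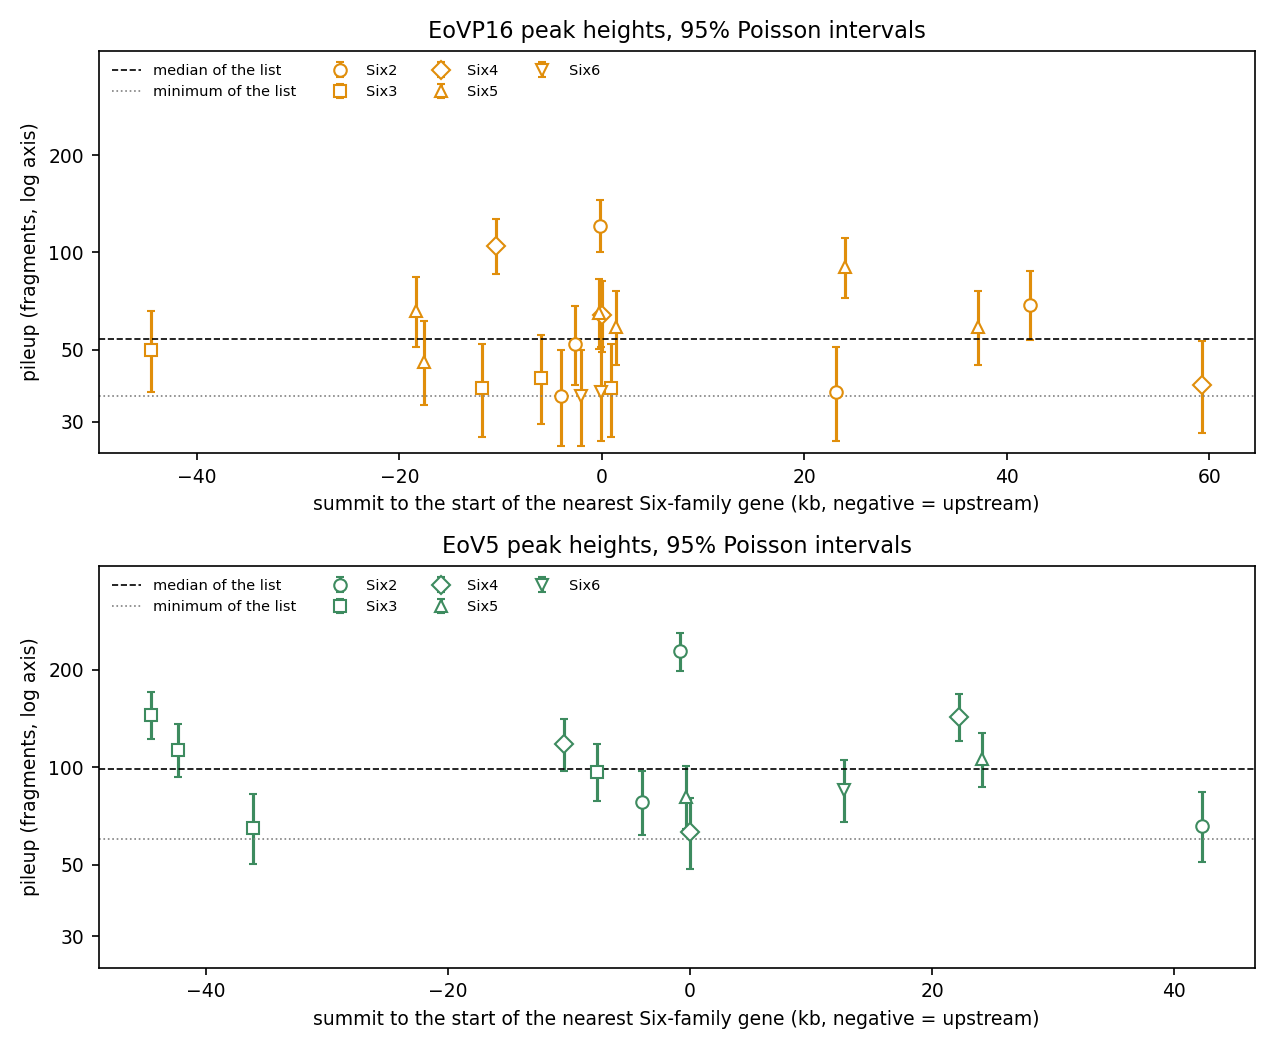
Pileup at the summit, in fragments on a log axis, of the 20 EoVP16 peaks (top) and 13 EoV5 peaks (bottom) near the Six-family genes, against the distance in kb from the start of the nearest Six-family gene, with negative values upstream. Symbols give the gene, bars the exact 95% Poisson interval, the dashed line the median of the whole list and the dotted line its minimum. The Six2 start is highest in both panels, with 121 and 228 fragments, and both Six6 peaks of EoVP16 sit at or next to the minimum.

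EoVP16 and EoV5 carry the same epitope for precipitation, and their heights were set side by side at the 9 sites of these genes in both lists. The pileups are not scaled to depth, so a ratio has meaning only against the ratio at other sites. Summed over the 9 sites EoVP16 had 641 fragments and EoV5 982, a ratio of 0.653 (0.59 to 0.722). The median ratio over the 9 sites was 0.802, and over all 20280 sites in both lists it was 0.597 (interquartile range 0.362 to 0.842). The ratio was above 1 at 2 of the 9 sites and at 12.2% of all sites. It falls with EoV5 height, with medians of 0.847 for EoV5 pileups of 61 to 80, 0.689 for 81 to 120, 0.427 for 121 to 240 and 0.225 above that, so each site is best read against sites of like EoV5 height. Part of this fall is built in, since EoV5 height is the divisor and each site must pass the minimum of both lists.

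Against such sites 7 of the 9 ratios had an interval that held the median. The Six2 start had a ratio of 0.531 (0.422 to 0.664), against a median of 0.427. The Six4 start had 1.02 (0.706 to 1.46) and the site between Six2 and Six3 1.05 (0.735 to 1.49), both against 0.847. The site upstream of Six4 had 0.89 (0.677 to 1.17), that upstream of Six5 0.802 (0.57 to 1.13) and that downstream of Six5 0.849 (0.634 to 1.14), each against 0.689, and the far site upstream of Six3 had 0.345 (0.245 to 0.479) against 0.427. The intervals of the other 2 lay below the median of their class. These were the site 4 kb upstream of Six2, with 0.462 (0.302 to 0.693) against 0.847, and the broad site upstream of Six3, with 0.423 (0.286 to 0.615) against 0.689, where the 2 summits lay 1656 bp apart. At the site 4 kb upstream of Six2 EoVP16 had 36 fragments, the minimum of its list, so no lower ratio could be listed at that EoV5 height. The split also hangs on the edges of the classes. That site had 78 EoV5 fragments, near the upper edge of its class, and its interval held the median of the next class, 0.689. The Six2 start, with 228 EoV5 fragments, was also near an upper edge, and the next class had a median of 0.225, below its interval.

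**Figure D5:**
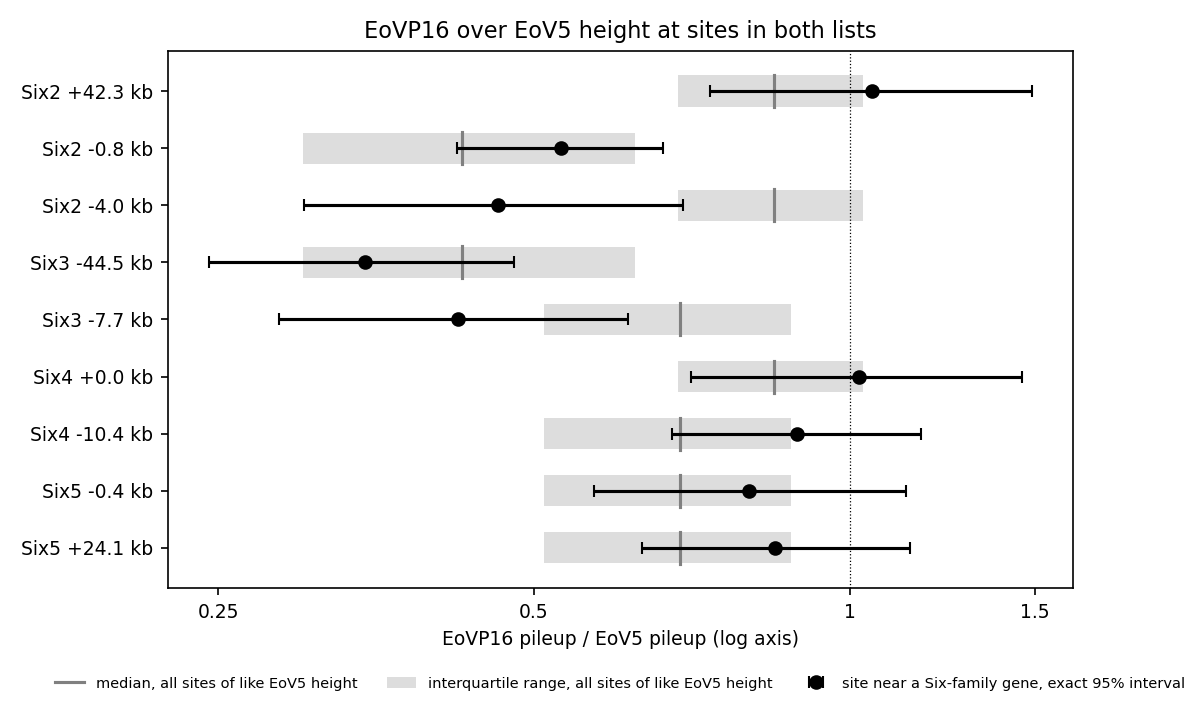
EoVP16 pileup divided by EoV5 pileup (log axis) at the 9 sites near the Six-family genes that are in both lists, named by the nearest Six-family gene and the distance of the EoV5 summit from its start (the site at 42.3 kb lies between Six2 and Six3). Points carry exact 95% intervals, grey boxes and lines are the interquartile range and median over all sites of like EoV5 height. The sites 4 kb upstream of Six2 and 7.7 kb upstream of Six3 lie left of their medians, and the other 7 intervals cross them.

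Other genes that work with Six-family proteins also had peaks in most lists. Of 21 such genes, 19 had an EoGFP peak, 15 a BraGFP peak, 20 an EoVP16 peak and 18 an EoV5 peak within 50 kb, with medians of 2, 2, 5 and 3 peaks. Most coding genes had such a peak too, with shares of 81.1%, 76.5%, 84.2% and 83.0% and medians of 3, 2, 3 and 3. Having a nearby peak therefore did not set these 21 genes off. The spans of the 21 genes differ widely, and long genes collect more peaks. Among partners of Six-family proteins, the coactivator gene Eya1 had 8 EoGFP, 3 BraGFP, 4 EoVP16 and 9 EoV5 peaks, the corepressor gene Dach1 had 5, 8, 8 and 9 in the same order of lists, and the Groucho gene Tle3 had 9, 8, 6 and 9. Dach2, on the X chromosome, had none in any list although its span is 539 kb.

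BraGFP was the list most often empty, with 6 of the 21 genes at 0, and it was also the list with the lowest share over all coding genes. The paired-box gene Pax2 had 5 EoGFP, 0 BraGFP, 5 EoVP16 and 7 EoV5 peaks, and its relative Pax8 had 1, 0, 2 and 2. The kidney and gonad factor Wt1 had 2, 0, 4 and 2, and the early kidney factor Osr1 had 2, 1, 1 and 0. Cited1, a transcriptional coregulator of nephron progenitors, had 1 EoVP16 peak and no other. Otx2, a forebrain and eye factor like Six3 and Six6, had 3, 0, 5 and 4. These genes are named because a list held 0 or because they had the most peaks. Others of the set, named here after their values were seen, had BraGFP peaks, with 2, 6, 6 and 4 peaks at the paired-box gene Pax3 and 1, 4, 1 and 1 at Gdnf, the gene of a growth factor of kidney outgrowth.

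Other families of developmental regulators were set beside the members. Median counts per gene were 4 EoGFP, 1 BraGFP, 6 EoVP16 and 3 EoV5 peaks over the 5 Six-family genes, 4, 0, 4 and 2 over the 5 Zic genes, and 6, 2, 5 and 8 over the 3 Foxa genes. BraGFP counts ran from 0 to 5 among the Six-family genes, 0 to 2 among the Zic genes and 0 to 3 among the Foxa genes. With so few genes per family no difference was tested.

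Genes with the same 4 counts were looked for by the smallest sum of absolute differences. The search covered coding genes with a span of up to 10 kb for Six5 and Six6 and up to 20 kb for the others. Six2 itself spans 25.5 kb, so genes as long as Six2 were left out. For Six2, 11 of 11848 genes had the same counts, and the closest in span were Camk1, Ogg1 and H2-D1. For Six3 there were 5, among them Cep295nl and Guk1, and for Six4 10, with Ndufab1, Poglut2 and Hspd1 closest. Six5 had 2 such genes among 7923, LOC115486424 and T, the Brachyury gene itself, and Zswim1 differed by 1 peak. Six6 had 5 among 7925, with H2-Q4, 5730409E04Rik and Pja1 closest. The likeness is over 4 lists only and says nothing of shared function.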

How the data were processed

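ChIP-seq peak lists of 4 constructs were analysed, each list belonging to the libraries that the labels name for it. The submitters' processing notes list MACS2 2.1.1.20160309.4, bedtools 2.27.0, Bowtie2 2.3.4, SAMtools 1.3.1 and Picard 1.56.0 with mm10/GRCm38, in an order and with settings not given in the sources used here. The deposited EoGFP and BraGFP lists hold positions only, and how their 2 libraries were joined is not given. The deposited EoVP16 and EoV5 lists have no header and the column order of a MACS2 table, in which the signal is a whole number, the fragments piled up at the summit. The authors' lists also give −log10 p and −log10 q values, which were not used, and the deposited ratio is the fold enrichment over the caller's background.

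Peaks on unplaced contigs (4, 7, 6 and 7 in EoGFP, BraGFP, EoVP16 and EoV5) and repeated entries (12, 4, 26 and 46) were left out. Overlap meant at least 1 bp. Positions are as deposited, and whether the starts in the GFP lists count from 0 or 1 is not given. Gene spans came from a GRCm38 gene table and starts and strands from the RefSeq promoter table, which gives no exons. Genes touched by a peak, the gene with the nearest listed start, 21 genes of the Six-family network and the Zic and Foxa families were named by rule, and some genes that the rule names are not reported here. The members and lists were chosen with earlier results of these data known. Computation used Python 3.11.15, numpy 2.4.6, pandas 2.3.3, scipy 1.17.1 and matplotlib 3.10.9, and the counting, overlap and interval steps were tested on simulated data. The depth of the libraries is unknown, and the uninduced, input, ATAC-seq, H3K27ac and RNA-seq libraries were not used.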

Additional observations from a re-analysis of the deposited data

How the results depend on the processing

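No paired analysis was possible because each construct has 1 peak list and no test was made. Of 50 recomputed values, 12 moved, by over 1.5 times for a count or out of the 95% interval for a share or ratio, and 38 did not. Counts of peaks near the genes moved with the window: 10 kb left 9 EoGFP, 7 BraGFP, 12 EoVP16 and 8 EoV5 peaks, and 100 kb gave 27, 19, 38 and 26, against 15, 12, 20 and 13 at 50 kb. Keeping the wider 50% of the EoGFP and BraGFP lists left 10 and 4 peaks, and keeping the taller 50% of the EoVP16 and EoV5 lists left 9 and 6. These cuts used unlike measures. By width, 12 EoVP16 peaks near the genes exceeded the list median, still more than the 10 of EoGFP. After the cut by height 66.7% of EoVP16 peaks near the genes overlapped EoV5 peaks, against 45%. The 56.9% of the whole list is for peaks of every height, and the share in that setting is not given here. With midpoints within 500 bp, 46.7% of EoGFP peaks had an EoV5 partner, against 73.3%. With fold enrichment in place of pileup the ratio of EoVP16 to EoV5 sums over the 9 shared sites was 0.767, against 0.653. The median ratio over these 9 sites rose to 0.943 from 0.802, and that over all 20280 sites in both lists to 0.699 from 0.597. Unknown depth and unequal minimum pileups limit every comparison between lists.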
